A study of Bos taurus with 6 samples.

Results

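3 stretches of the cattle genome, chosen as the places of the epidermal differentiation complex (EDC) and of the keratin gene clusters, were examined in whole-genome bisulfite sequencing (WGBS) data of rumen epithelial primary cells (REPC). Positions were those of the assembly UMD3.1.1, and the stretches were chr3:16500001-19500000 (EDC interval), chr5:27000001-28500000 (type II keratin interval) and chr19:41500001-43000000 (type I keratin interval). Members were the 500-bp windows, counted from position 1 of each chromosome, that had at least 10 reads at CpG cytosines summed over the 6 libraries. The rule took 7169 of the 2494593 such windows of the whole series, and no methylation level was used to choose them. There were 3157 members in the EDC interval, 2179 in the type II keratin interval and 1833 in the type I keratin interval. Each interval was set against the 5 Mb on either side of it, called here the lower flank (smaller positions) and the upper flank (larger positions).

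The EDC is a cluster of genes for the proteins that build the cornified envelope, the tough layer that replaces the plasma membrane of keratinizing epithelial cells. It comprises precursors of the envelope such as involucrin and loricrin, the small proline-rich and late cornified envelope proteins, fused-type proteins such as trichohyalin and cornulin, and S100 calcium-binding proteins. Keratins are the intermediate filament proteins of epithelial cells, and a filament needs a type I and a type II partner, such as KRT14 with KRT5 in basal cells, KRT10 with KRT1 or KRT13 with KRT4 in cells above the basal layer, and KRT18 with KRT8 in simple epithelia. The rumen is lined by a keratinized stratified squamous epithelium, in which some of these genes are turned on as cells move up from the basal layer. Methylation of CpG cytosines is low at many CpG-dense promoters and at active regulatory regions, and high over most of the rest of the genome.

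In the RefSeq annotation of another assembly, ARS-UCD2.0, 13 protein-coding genes of the EDC structural families lay on chromosome 3, from LORICRIN and IVL to TCHH and TCHHL1. That chromosome also held 14 S100A genes and both PGLYRP3 and PGLYRP4, which code for peptidoglycan recognition proteins. The type II cluster on chromosome 5 held 26 type II keratin genes from KRT8 to KRT80, with the type I gene KRT18 beside KRT8. The type I cluster on chromosome 19 held 28 type I keratin genes from KRT222 to KRT17 and 10 genes of keratin-associated proteins of hair. Positions differ between assemblies, so no window was assigned to a gene, and whether the bounds of the intervals hold all of these genes in UMD3.1.1 was not checked here.

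The groups were 3 libraries of untreated control cells and 3 of cells kept for 24 h in medium with 5 mM butyrate. Values of libraries are given in the order of replicates 1, 2 and 3 of a group. All cells came from 1 Holstein bull calf, 2 weeks old, fed with milk replacer only, so p-values measure the spread between these libraries, which may be technical, and not that between animals. Butyrate is a short-chain fatty acid of rumen fermentation and an inhibitor of histone deacetylases. The libraries held 18793438 to 23842285 reads at CpG cytosines, with a mean of 1.47 to 1.57 reads per covered cytosine. Control replicates 1, 2 and 3 and butyrate replicate 2 were run in lane 6, and butyrate replicates 1 and 3 in lane 5. Treatment and lane can therefore be compared within a lane only through butyrate replicate 2. Epithelial identity could not be checked against markers, since these libraries measured DNA methylation and not expression.

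The intervals differed in how much of them could be read. Members covered 52.6% of the windows of the EDC interval, 72.6% of those of the type II keratin interval and 61.1% of those of the type I keratin interval. The EDC interval had few covered CpG cytosines, with a mean of 11.6 distinct ones per member window against 13.8 in its flanks and 13.2 on the autosomes. Only cytosines with a read in some library were counted, so these counts also depend on depth. There were 3.04 reads per CpG cytosine in the EDC interval and 3.68 in its flanks. Windows with over 30 CpG cytosines made up 3.86% of EDC members against 8.06% of the windows of its flanks. The type II keratin interval was richer than its flanks, with 14.4 against 12.7 CpG cytosines per window and 7.07% against 5.46% of windows over 30. The type I keratin interval was slightly poorer than its flanks, with 14.6 against 15.4 and 7.75% against 9.42%.

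Depth set the precision. The median member had 23 reads over the 6 libraries in the EDC interval, 30 in the type II keratin interval and 29 in the type I keratin interval. Summed over an interval, a library had 16541 to 20953 reads in the EDC interval, 14342 to 18465 in the type II keratin interval and 12150 to 16072 in the type I keratin interval. The 95% Wilson interval of a library's level reached at most 0.750, 0.788 and 0.845 percentage points to either side, and covered counting error only. Just inside the read minimum, the 180 EDC windows with 10 reads had a level of 65.1%, and just outside it the 180 windows with 9 reads had 65.5%. The corresponding levels were 76.0% (80 windows) and 71.01% (64 windows) in the type II keratin interval, and 71.1% (66 windows) and 71.9% (80 windows) in the type I keratin interval.

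The EDC interval was the least methylated of the 3. Its methylation level, the methylated reads divided by all reads of the member windows, was 58.8%, 61.1% and 59.4% in the controls and 60.7%, 60.2% and 61.3% after butyrate. The mean over the 6 libraries was 60.2% ± 0.988 (SD, n = 6), and the level of the autosomes was 66.3% ± 0.349 (SD, n = 6). The flanks of the EDC interval were themselves unlike each other, at 64.2% ± 0.700 below and 50.4% ± 0.546 above the interval (SD, n = 6). Every library had the interval between its flanks. Against each flank alone, a comparison added after seeing the data, it was 3.95 percentage points lower than the lower flank and 9.89 points higher than the upper flank, each in 6 of 6 libraries (two-sided exact sign-flip permutation test over the libraries, p = 0.03125, the smallest it can give). Against both flanks together the difference was 1.12 ± 1.05 points (SD, n = 6), higher in 5 of 6 libraries, and did not pass the same exact permutation test (p = 0.0625). Such a p covers the spread between libraries of 1 place in the genome, and not how often places of this size differ from their surroundings.

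**Figure D1:**
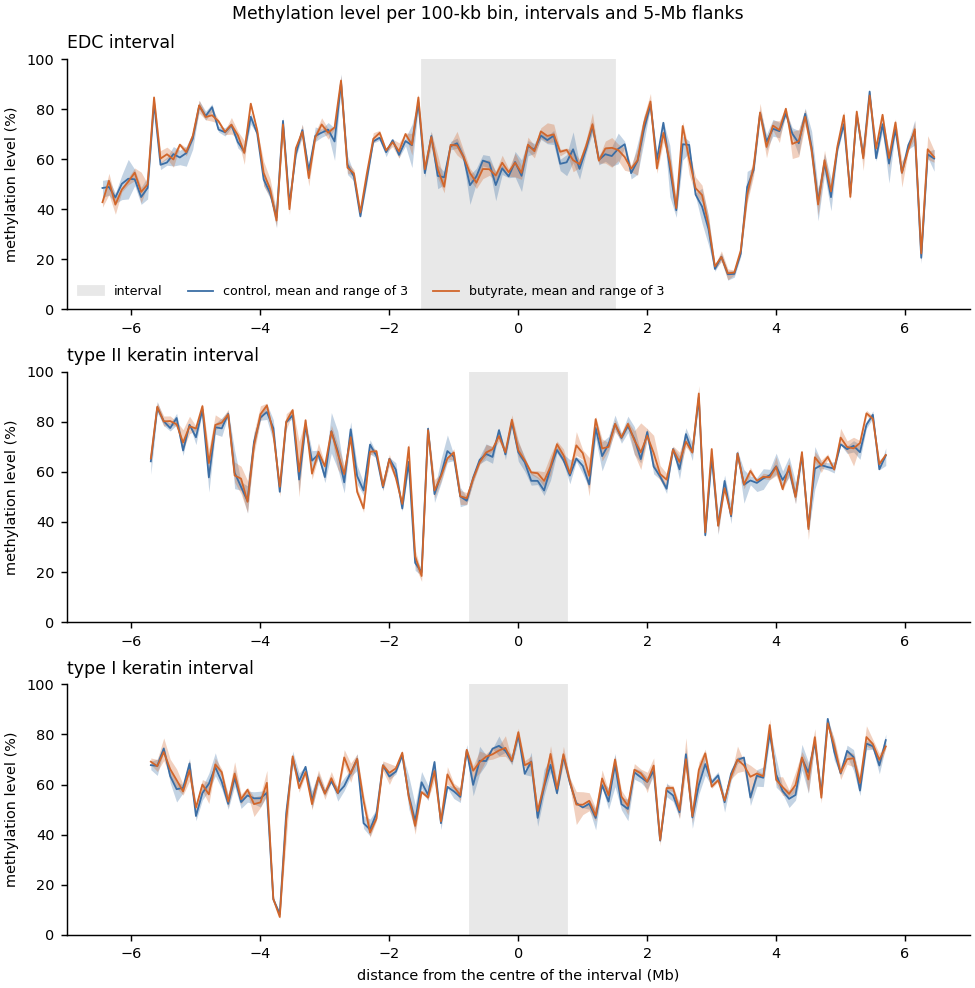
Methylation level in percent of each 100-kb bin against its distance in Mb from the centre of the interval, with the interval shaded and 5 Mb of flank on either side; lines are means and bands are ranges of 3 control (blue) and 3 butyrate (orange) libraries. The groups lie close together, the bins of the EDC interval stay between 50.9% and 73.6%, and the upper flank of the EDC interval holds a stretch that falls to 14.3%.

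Within the EDC interval, long stretches of intermediate level stood beside more methylated ones. The 30 bins of 100 kb ranged from 50.9% to 73.6% with an SD of 6.20 points, where the 50 bins of the lower flank ranged from 35.9% to 90.8% (SD 12.7) and the 50 of the upper flank from 14.3% to 86.3% (SD 18.6). The longest stretch of adjacent bins under the level of the interval was chr3:17200001-18100000, with 9 bins of 51.8% to 58.8%. It was the thinly covered middle of the interval, with 57 to 113 members and a median of 868 CpG cytosines per bin against 1478 in the other bins. Windows under 20% made up 7.69% of its members and 9.35% of those of the other bins. Directly above it lay the longest stretch over the level of the interval, chr3:18100001-18900000, with 8 bins of 60.4% to 70.4%. There 6.74% of members were under 20%, a smaller share than in the stretch below it.

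The bin with the lowest level in the EDC interval was chr3:16800001-16900000, near its lower end. Its level was 55.1%, 49.8% and 53.5% in the controls and 46.6%, 49.2% and 51.2% after butyrate, and the groups overlapped. Of its 161 members, 37 had a level under 20%, more than in any other bin of the interval. The bin with the highest level was chr3:19100001-19200000, at 73.6% over all reads, where 4 of 95 members were under 20%.

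Unmethylated windows made up a smaller share of the EDC interval than of its flanks and often stood alone. With the reads of the 6 libraries summed, 283 members (8.96%) had a level under 20%, against 11.4% of the windows of the flanks and 5.33% of those of the autosomes. At the other end, 39.6% of members had a level of 80% or more, against 45.0% in the flanks and 44.9% on the autosomes. Levels from 50% up to 80% were held by 38.3% of members against 31.8% in the flanks, and the median member was at 72.4% against 76.2%. Adjacent low members were joined into runs, and 119 of the 175 runs (68.0%) consisted of a single window, against 59.8% in the lower and 44.2% in the upper flank. A run also ended where the next window had under 10 reads. Members covered 52.6% of the windows of the interval, 57.3% in the lower and 49.6% in the upper flank. Runs of any length occurred 58.3 times per Mb against 57.2 and 53.0. Runs of 3 or more windows occurred 10 times per Mb, against 14.2 in the lower and 19.4 in the upper flank.

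**Figure D2:**
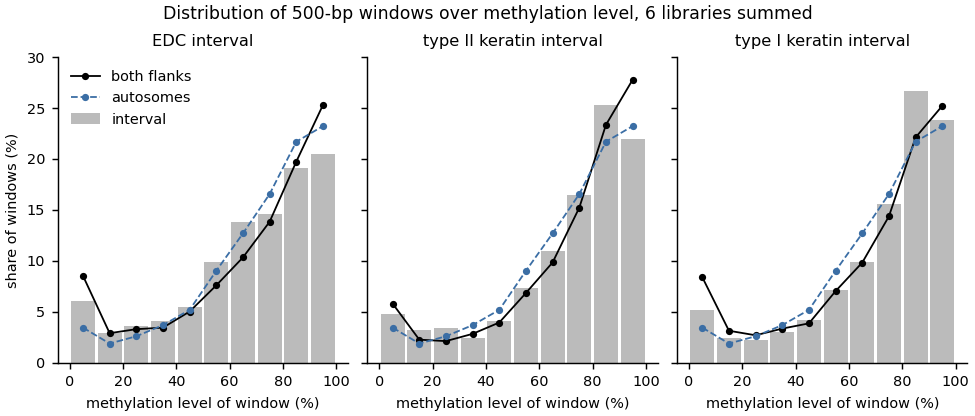
Share in percent of 500-bp windows by methylation level in steps of 10 points, reads of the 6 libraries summed, for each interval (grey bars), its flanks (black line) and the autosomes (dashed blue line). The EDC interval has a smaller share than its flanks at both ends (6.05% against 8.53% under 10%, and 20.5% against 25.3% from 90% up) and a larger share between 50% and 80%.

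The longest low run of the EDC interval was chr3:16868001-16872000, with 8 windows over 4000 bp and 126 CpG cytosines. It lay in the bin with the lowest level. Its level was 4.23%, 2.27% and 1.89% in the controls and 4.23%, 2.08% and 0.00% after butyrate, on 48 to 88 reads a library. The 1 kb before it had 22.6% and the 1 kb after it 82.2%, so that its upper edge was steep. The run with the most reads, chr3:16760001-16762500, was far richer in CpG, with 59.0 CpG cytosines per window and 1133 reads. It had a level of 5.31%, 8.33% and 12.5% in the controls and 4.79%, 16.1% and 3.86% after butyrate, between neighbours of 80.8% and 66.7%. The third run by length, with ties ordered by reads, was chr3:18765501-18768000. It had 5 windows at 3.75% over all reads between neighbours of 56.0% and 63.9%. All 3 runs were low in every library, and none separated the groups.

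The level of windows changed with their CpG density, so the comparison was repeated within classes of CpG cytosines per window. In EDC windows with 1 to 5 CpG cytosines the level was 66.4%, with 6 to 15 it was 68.2%, with 16 to 30 it was 65.0% and with over 30 it was 32.4%. In the flanks the levels of these classes were 69.6%, 71.3%, 67.6% and 44.8%. The interval was lower in each class, by -3.21 ± 2.02, -3.13 ± 0.759, -2.62 ± 0.786 and -12.4 ± 2.72 points (SD, n = 6), in 6 of 6 libraries each (exact sign-flip permutation test, p = 0.03125, Benjamini-Hochberg adjusted over the 12 pairs of interval and class 0.0417). The class of 6 to 15, which held 62.1% of the members, was lower than each flank alone, by -2.61 and -3.73 points. In the class of 1 to 5 the difference was -1.84 points against the lower flank, in 5 of 6 libraries (exact permutation p = 0.0938), and -4.47 against the upper flank.

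Above 15 CpG cytosines the direction depended on the flank and the weights. The class of 16 to 30 was -5.15 points from the lower and 2.48 points from the upper flank. Without the most deeply covered CpGs, the class of over 30 was -7.01 points from both flanks. With all CpGs kept, this class was -24.8 points from the lower flank, which had 57.2%, and 15.7 points from the upper flank, which had 16.7%. Among windows with a read in all 6 libraries, the class of over 30 was 6.39 points higher than both flanks together with equal weight for each window, and -13.7 points from them when the same windows were weighted by reads. By number of windows, 61 of 122 EDC members of that class (50%) were under 20%, against 59.2% in the flanks (44.8% in the lower and 76.5% in the upper). In the classes of 6 to 15 and 16 to 30 the shares under 20% were 6.13% and 15.2%, against 5.60% and 14.3% in the flanks. In the class of 1 to 5 the share was 4.98% against 5.60%. With the class shares of the flanks, the EDC interval as a whole was -6.97 points from the flanks. Among windows with a read in all 6 libraries it was -0.11 points from them by reads and -0.27 points with equal weights. A direction for the whole EDC interval against its surroundings therefore could not be given apart from these choices, while windows with 6 to 15 CpG cytosines were lower against both flanks, against each alone and with equal weights (-3.69 points).

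**Figure D3:**
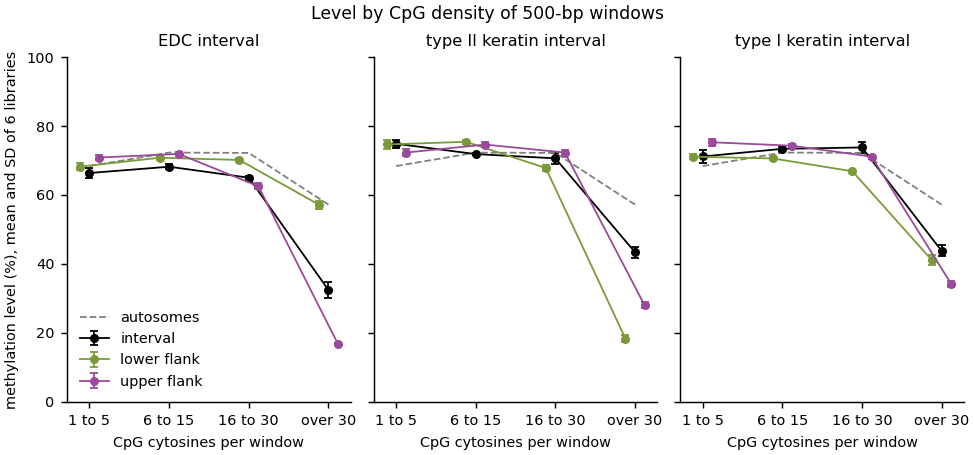
Methylation level in percent by number of CpG cytosines per 500-bp window for each interval (black), its lower (green) and upper (purple) flank, as mean and SD of 6 libraries, and for the autosomes (dashed grey, mean). Levels of the flanks spread from 16.7% to 57.2% in the class of over 30 around the EDC interval, and both keratin intervals lie above both of their flanks in that class.

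Over all reads, the type II keratin interval was more methylated than its flanks, while its median member was not. Its level was 63.4%, 63.1% and 63.8% in the controls and 64.4%, 65.4% and 65.1% after butyrate. The lower flank had 59.7% ± 0.785 and the upper flank 61.5% ± 0.829 (SD, n = 6). The interval exceeded both flanks together by 3.62 ± 0.407 points (SD, n = 6), in 6 of 6 libraries (exact sign-flip permutation test, p = 0.03125, adjusted over the 3 intervals 0.0469). It exceeded the lower flank by 4.54 and the upper flank by 2.73 points. With equal weight for each window with a read in all 6 libraries the difference was 0.45 points, by reads of those windows 6.96 points, and with flanks of 2 Mb 6.75 points, all in the same direction in the exact permutation test (p = 0.03125). The median member was at 77.8% against 80% in the flanks, and 47.2% of members were at 80% or more against 51.1%.

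The difference was largest in its CpG-dense windows. The class of over 30 had a level of 43.4% in the interval and 23.4% in the flanks, a difference of 19.95 ± 1.49 points (SD, n = 6) in 6 of 6 libraries (exact sign-flip permutation test, p = 0.03125, adjusted 0.0417). Against the lower and the upper flank alone it was 25.1 and 15.4 points. With equal weight for each window with a read in all 6 libraries it was 20.3 points. In this class 61 of 154 members (39.6%) were under 20%, against 63.6% in the flanks, and 35.7% were at 80% or more against 20.03%. On the autosomes this class had a level of 57.2%, above both the interval and its flanks. There 27.5% of its windows were under 20% and 40.8% at 80% or more. Windows with 6 to 15 CpG cytosines went the other way, at 71.9% against 75.03%, a difference of -3.18 ± 0.499 points in 6 of 6 libraries (exact permutation p = 0.03125, adjusted 0.0417). The classes of 1 to 5 and 16 to 30 differed by 1.40 ± 1.14 and 0.48 ± 1.64 points, and neither passed the exact permutation test (p = 0.0625 and 0.531).

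Low windows made up about the same share of the type II keratin interval as of its flanks, while runs of any length were more frequent and long runs less so. Of the members, 175 (8.03%) were under 20% against 8.07% in the flanks, and members covered 72.6% of its windows against 52.6% in the flanks. Low runs of any length occurred 73.3 times per Mb against 42.0 in the lower and 36.6 in the upper flank, and runs of 3 or more windows 8.0 times per Mb against 11.0 and 12.4. The longest run was chr5:27045501-27049000, with 7 windows and 157 CpG cytosines, near the lower end of the interval. Its level was 6.56%, 1.96% and 0.00% in the controls and 5.26%, 4.76% and 0.00% after butyrate, on 51 to 76 reads a library, between neighbours of 82.1% and 89.3%. The longest run of the lower flank had 18 windows and that of the upper flank 10, but each flank is 5 Mb long and the interval 1.5 Mb.

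The run with the most reads was chr5:28198001-28200000, with 4 windows, 105.5 CpG cytosines per window and 1555 reads. It had 10.3%, 7.62% and 7.28% in the controls and 14.9%, 12.7% and 6.90% after butyrate, between neighbours of 91.4% and 87.5%. The groups overlapped. The run chr5:27213001-27215500, with 5 windows, had 9.14% over all reads on 12 to 47 reads a library, after a neighbour of 22.95% and before 1 of 76.9%.

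Bins of the type II keratin interval ranged from 54.3% to 80.4% (SD 6.96, 15 bins), against an SD of 14.7 in the lower and 11.2 in the upper flank. The lower part of the interval held the longest stretch above its own level, chr5:27100001-27800000, with 7 bins of 64.4% to 80.4%, and the upper part the longest stretch below it, chr5:27800001-28300000, with 5 bins of 54.3% to 64.1%. The former had a median of 1984 CpG cytosines per bin and 5.998% of members under 20%, and the latter 2792 and 10.9%. The bin with the highest level was chr5:27600001-27700000, at 80.04%, 78.3% and 81.2% in the controls and 78.7%, 82.8% and 81.0% after butyrate. The bin with the lowest level, chr5:28100001-28200000, had 50.6%, 51.1% and 56.0% in the controls and 60.1%, 54.2% and 54.9% after butyrate. The CpG-dense run chr5:28198001-28200000 lies at the upper end of this bin.

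Over all reads, the type I keratin interval was more methylated than its flanks, while its median member equalled that of the upper flank. Its level was 65.5%, 64.8% and 63.6% in the controls and 66.0%, 65.5% and 67.4% after butyrate. The lower flank had 57.2% ± 0.467 and the upper flank 59.5% ± 0.540 (SD, n = 6). The interval exceeded both together by 7.22 ± 1.01 points (SD, n = 6), in 6 of 6 libraries (exact sign-flip permutation test, p = 0.03125, adjusted 0.0469), and exceeded the lower and the upper flank by 8.23 and 5.91 points. With equal weight for each window with a read in all 6 libraries the difference was 4.29 points. At the CpG density of the flanks it was 3.70 points. The level of chromosome 19 as a whole was 65.3%, nearer to the interval than to either flank. The level of chromosome 5 was 66.8% and that of chromosome 3 was 65.1%.

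By reads and against both flanks together, the interval was higher in the classes above 5 CpG cytosines. It was 1.03 ± 0.921 points above its flanks in the class of 6 to 15, 4.97 ± 1.64 points in the class of 16 to 30 and 5.40 ± 0.948 points in the class of over 30 (SD, n = 6), each in 6 of 6 libraries (exact sign-flip permutation test, p = 0.03125, adjusted 0.0417). The classes of 16 to 30 and of over 30 were above each flank alone, by 6.91 and 2.66 points and by 2.73 and 9.54 points. In the class of over 30 the difference was 8.89 points without the most deeply covered CpGs. With equal weight for each window with a read in all 6 libraries it was 14.6 points. In the class of 6 to 15 the difference was 2.78 points against the lower and -0.91 points against the upper flank, and with equal weights it was 0.53 points and did not pass (exact permutation p = 0.219). The class of 1 to 5 differed by -1.99 ± 2.17 points (exact permutation p = 0.0938) by reads. Among windows with a read in all 6 libraries it differed by 3.05 points by reads and 5.19 points with equal weights. In the class of over 30, 55 of 142 members (38.7%) were under 20% against 57.4% in the flanks, and 43.0% were at 80% or more against 24.2%. On the autosomes these shares were 27.5% and 40.8%. The level of the class was 43.8% in the interval, 38.4% in the flanks and 57.2% on the autosomes.

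The type I keratin interval consisted of a methylated lower part with few covered CpG cytosines and an upper part with more of them and most of the low windows. The stretch chr19:41600001-42500000 held 9 bins above the level of the interval, at 65.9% to 80.4%, with a median of 1243 CpG cytosines per bin against 2941 in the other bins. Windows under 20% made up 4.97% of its members and 10.3% of those of the other bins. The 2 bins of chr19:42500001-42700000 followed, at 48.0% and 59.0%, with 14.8% of members under 20%. The highest bin, chr19:42200001-42300000, had 77.5%, 81.6% and 80.1% in the controls and 82.6%, 80.2% and 79.96% after butyrate, and 1 of its 105 members was under 20%. The lowest, chr19:42500001-42600000, had 46.8%, 49.8% and 43.3% in the controls and 48.4%, 49.4% and 50.5% after butyrate.

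All named low runs of the type I keratin interval lay in that upper part. Of the members, 139 (7.58%) were under 20% against 11.5% in the flanks, in 81 runs of which 14 had 3 or more windows (9.33 per Mb against 23.4 and 16.6). No run was longer than 5 windows, where the longest had 26 in the lower and 8 in the upper flank. These maxima come from 1.5 Mb of interval and 5 Mb of each flank, and are not like for like. The run chr19:42734001-42736500 had 6.40%, 1.61% and 4.10% in the controls and 1.74%, 2.96% and 3.45% after butyrate, with 42.0 CpG cytosines per window. The run chr19:42626501-42629000 had 4.55%, 2.23% and 4.47% in the controls and 2.86%, 1.11% and 2.17% after butyrate. The run with the most reads, chr19:42688501-42690500, had 929 reads and 0.00%, 1.47% and 2.73% in the controls against 3.97%, 3.31% and 0.855% after butyrate, between neighbours of 72.2% and 81.2%. The first 2 of these runs had a neighbour of 18.4% and 18.5% below them and of 75.5% and 66.7% above.

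Low windows chosen in the reads of the controls alone were read again in the butyrate libraries, which the choice had not used. In the EDC interval, 184 of 1460 members with at least 10 reads in each group were under 20% in the controls, and 156 of these (84.8%) were also under 20% after butyrate, with a median of 3.88%. The count was 99 of 126 (78.6%) in the type II keratin interval, with a median of 8.20%, and 93 of 103 (90.3%) in the type I keratin interval, with a median of 4.17%. In the flanks the shares were 90.2%, 88.5% and 89.8%. Windows low in the controls and at 50% or more after butyrate numbered 5 of 184 in the EDC interval and 0 in both keratin intervals, against 6 of 904, 3 of 654 and 10 of 1201 in the flanks. The reverse choice gave 0 of 179, 2 of 127 and 2 of 106 windows, against 8 of 896, 3 of 637 and 7 of 1221 in the flanks. These are counts of windows with few reads and were not tested.

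The control and butyrate libraries were compared next, to ask whether butyrate changed methylation in the intervals. All 3 intervals had a slightly higher mean level after butyrate, by 0.95 points in the EDC interval (59.8% ± 1.22 against 60.7% ± 0.542), 1.52 points in the type II keratin interval (63.4% ± 0.367 against 65.0% ± 0.529) and 1.68 points in the type I keratin interval (64.6% ± 0.938 against 66.3% ± 0.994; SD, n = 3). In the two-sided exact permutation test of 3 against 3, where the smallest p is 0.1, p was 0.3, 0.1 and 0.2, and 0.3 for each after adjustment over the intervals. The groups did not overlap in the type II keratin interval and overlapped in the other intervals. This separation was not particular to that interval. The groups did not overlap, with a higher level after butyrate, on the autosomes (66.0% ± 0.110 against 66.6% ± 0.108, a difference of 0.61 points), in both flanks together of each interval, and in the EDC lower, type II upper and both type I flanks taken alone. In lane 6 alone, butyrate replicate 2 stood 0.41, 1.96 and 0.83 points from the mean of the controls in the EDC, type II and type I keratin intervals, and above the highest control only in the type II keratin interval, by 1.59 points. Among windows with a read in all 6 libraries, with equal weight for each, the differences between groups were smaller, at 0.60, 0.71 and 0.88 points. The weights and the choice of windows changed together here and were not separated. By reads, the EDC difference was 0.44 points when control replicate 1 was left out, and reached 1.62 points when control replicate 2 was.

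**Figure D4:**
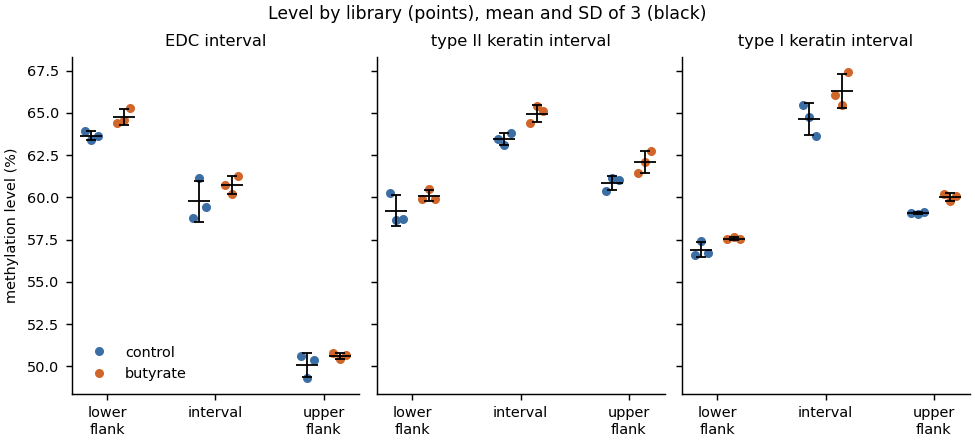
Methylation level in percent of each library (points) in each interval and its lower and upper flank, with mean and SD of 3 libraries in black; the axis starts above 0. Butyrate libraries lie above control libraries in the type II keratin interval and also in the EDC lower, type II upper and both type I flanks, and the intervals sit above both flanks in the type II and type I panels and between them in the EDC panel.

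Whether the intervals moved apart from their flanks after butyrate was then tested. The difference from both flanks, taken within each library, changed by 0.04 points in the EDC interval, 0.46 points in the type II keratin interval and 0.88 points in the type I keratin interval (exact permutation p = 1.0, 0.3 and 0.4). Among windows with a read in all 6 libraries, with equal weight for each, the keratin intervals gave 0.30 and 0.79 points. Each was at the smallest exact permutation p of 0.1, and weights and windows changed together. The type I value was 0.34 points without butyrate replicate 3, 0.43 without control replicate 3, 1.42 without control replicate 1, 0.56 with flanks of 2 Mb and 0.084 in lane 6, and the type II value was 0.73 without control replicate 3. The upper flank of the type II keratin interval was higher after butyrate by 1.23 points in mean level and its lower flank by 0.89 points. A larger difference between groups in the intervals than around them was not detectable with 3 libraries a group.

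**Figure D5:**
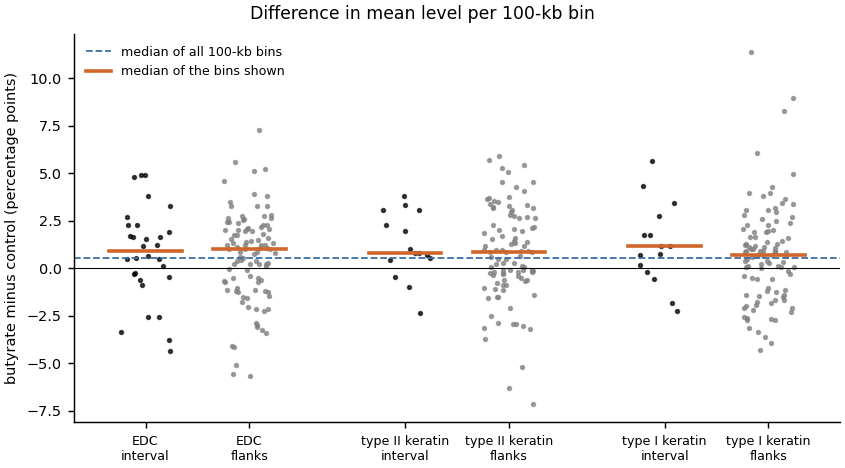
Mean level after butyrate minus mean level of the controls, in percentage points, for each 100-kb bin (points) of the intervals (black) and their flanks (grey), with the median of each set (orange) and of all bins of the genome (dashed blue). Medians of the 3 intervals are 0.93, 0.83 and 1.16 points, and the bins spread to both sides of 0 in each.

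Single bins were tested with limma on the log2 ratio of methylated to unmethylated reads, adjusted over the 27035 bins of the genome. Of the 60 bins of the intervals 0 passed an adjusted p of 0.05, as did 0 bins of the genome (0.0%), and 0 of the 60 had an unadjusted p under 0.05 against 5.58% of the genome. More bins had a higher than a lower mean after butyrate, namely 20 of 30 in the EDC interval, 12 of 15 in the type II and 11 of 15 in the type I keratin interval, against 59.7% of the genome. All butyrate libraries exceeded all controls in 2, 0 and 1 bins, against 7.83% of the genome, and all were below in 0 bins against 3.33%. Both such EDC bins were neighbours, chr3:18600001-18700000 and chr3:18700001-18800000. The first had 59.0%, 55.4% and 60% in the controls and 63.98%, 63.6% and 61.3% after butyrate (adjusted p = 0.882 by limma, unadjusted 0.0504). The second had 53.4%, 61.1% and 61.8% against 63.7%, 64.5% and 62.9% (adjusted p = 0.885 by limma).

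The other bins with the smallest p in each direction did not separate the groups, and each had an adjusted limma p of at least 0.882. In the type I keratin interval, chr19:41500001-41600000 had 59.9% ± 3.81 in the controls and 65.5% ± 2.91 after butyrate, and chr19:41800001-41900000 had 74.3% ± 0.108 and 72.1% ± 2.36 (SD, n = 3). In the type II keratin interval, chr5:27900001-28000000 had 56.4% ± 2.77 and 59.8% ± 0.774, and chr5:27400001-27500000 had 76.7% ± 0.912 and 74.3% ± 2.04. In the EDC interval the smallest p for a lower level belonged to chr3:16800001-16900000, described above, with 52.8% ± 2.73 and 49.0% ± 2.32. On simulated counts of the same depth, with no added spread between libraries, limma found 55.0% of the bins given a change of 10 points and 98.5% of the bins given 20 points. Real replicates differed beyond sampling, so recovery in these libraries can be lower.

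Single windows were tested by logistic regression as in the methods of the study, with a Benjamini-Hochberg q under 0.05 and a difference of pooled levels over 10 points as the rule for a call. When only CpGs with 10 reads or more per library were used, 0 of the 7169 members could be tested, whereas 8874 windows of the genome could and 0.789% of them were called. At that minimum no member of the intervals has a value. With all CpGs of a window summed, 262 members had 10 reads in each library (86 in the EDC, 91 in the type II and 85 in the type I keratin interval), which was 3.65% of the members. Of these 0 were called, against 0.517% of 103361 windows of the genome. At an unadjusted p under 0.05 there were 27 (10.3%, against 10.4% of the genome) and limma called 0 with 18 under 0.05 (6.87%, against 5.46% of the genome). A quasi-binomial F test also called 0, with 2 under 0.05 (0.763%, against 1.18% of the genome), but at this depth it recovered 0 of 200 simulated windows even at 40 points, so its count carries no information. All butyrate levels lay above all control levels in 14 of the 262 windows against 5.33% of the genome, and below in 12 against 4.0%, which are shares near those of the genome.

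The 2 windows with the lowest q were lower after butyrate. The lowest q, 0.0774, belonged to chr5:27479001-27479500, a window with 31 CpG cytosines in the type II keratin interval. It had 25%, 36.7% and 33.3% in the controls and 17.5%, 3.57% and 5.00% after butyrate, on 12 to 40 reads a library, and the groups did not overlap. In the EDC interval chr3:18983501-18984000, with 55 CpG cytosines, had 39.5%, 50% and 38.3% against 5.56%, 11.8% and 40% (q = 0.0896), and the groups overlapped through butyrate replicate 3. The type I window with the smallest p for a lower level, chr19:42112501-42113000, had 50%, 59.6% and 66.7% against 41.7%, 41.7% and 42.9% (q = 0.376).

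Among windows that were higher after butyrate, chr3:19003501-19004000 had 72.2%, 85.0% and 81.8% in the controls and 95.7%, 100.0% and 100.0% after butyrate (q = 0.128). In the type II keratin interval chr5:27809501-27810000 had 88.5%, 90.0% and 90.6% against 93.3%, 100.0% and 100.0% (q = 0.402). In both, the groups did not overlap. The window chr19:42748501-42749000 had 64.3%, 7.69% and 20% against 68.8%, 26.3% and 86.7% (q = 0.202), a spread within each group as wide as the difference between them. None of these values met the rule for a call, and at this depth logistic regression recovered 42.0% of simulated windows given a change of 20 points and 93.0% given 40 points, again with no added spread between libraries.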

How the data were processed

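WGBS libraries were made with a low-input kit. The authors trimmed reads with Trim Galore 0.4.1, mapped them to UMD3.1.1 with bowtie2 and extracted methylation with Bismark, and deposited counts of methylated and unmethylated reads per CpG cytosine, 1 file per library, without header or normalization. Removal of duplicates is not given in the sources used here, and duplicates make reads less independent than counted. The third column was taken as methylated reads since it held 66.0% of all reads and 57.3% in windows with over 30 CpG cytosines. Positions were used as deposited, counted from 1.

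Reads were summed in 500-bp windows. Density classes counted distinct CpG cytosines seen in any library. Levels were compared by two-sided exact permutation tests. All values with equal weight for each window used only windows with a read in all 6 libraries. Windows were fitted over the whole genome by logistic regression with a likelihood-ratio test, and 100-kb bins with at least 100 reads in each library by limma 3.58.1 (eBayes) on log2((methylated + 1)/(unmethylated + 1)), both with Benjamini-Hochberg adjustment in place of the study's SLIM method. Tools were Python 3.11.15, NumPy 2.4.6, SciPy 1.17.1, pandas 2.3.3 and R 4.3.3. Tests were checked on simulated counts with 200 changed features, where levels over 50% were lowered and the others raised.

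Named regions were, per interval, the 3 low runs with the most windows and that with the most reads, the bins with the lowest and highest level, and the bin and the tested window with the smallest p in each direction. Runs with equal numbers of windows were ordered by reads, so other runs of the same length can be left unnamed. The stretches of bins, the EDC bin chr3:18700001-18800000 and the low windows chosen in 1 group were added after their values were seen. The intervals, lists and tests were chosen with earlier results of these data known. Counts of each pair of replicates differed beyond sampling (chi-square over degrees of freedom 1.40 to 1.44), and all 6 libraries were kept. Gene order came from RefSeq on ARS-UCD2.0; sequences and gene positions of UMD3.1.1 were not used here.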

Additional observations from a re-analysis of the deposited data

How the results depend on the processing

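Of 240 values recomputed under alternatives, 118 could not cross a threshold, because the design cannot reach it, the value has no test or almost no window could be tested. Of the other 122, 87 kept direction and side. Sums over CpG cytosines with few reads limit single windows; levels of whole intervals rest on many reads, and were limited by the number of libraries, the choice of flank, the weights of windows and CpG density. The type II and type I keratin intervals exceeded their flanks under all alternatives run, by 0.45 to 6.96 and 3.70 to 8.23 points, and values without a library have no test. Equal weights were run only among windows with a read in all 6 libraries, where they gave the 0.45 points. Over all members, the median type II window was at 77.8% against 80% in the flanks. The type II excess thus held by reads and not for the median window. The EDC interval minus its flanks was 2.15 points without the most deeply covered CpGs, 7.51 with flanks of 2 Mb, 9.89 against the upper flank, -3.95 against the lower flank and -6.97 at the CpG density of the flanks, each with exact permutation p = 0.03125, and -0.27 with equal weights (p = 0.156) and -0.11 by reads (p = 0.656) among windows with a read in all 6 libraries, by the same exact permutation test. Its change with butyrate, 0.04 points, was -0.0032 and -0.036 with members of 5 and 20 reads, -0.033 with equal weights, -0.31 in lane 6, -0.36 at the CpG density of the flanks, -0.16 against the lower flank, 0.42 against the upper flank, 0.45 with flanks of 2 Mb, 0.045 without the most deeply covered CpGs, and from -0.64 to 0.94 when each library was left out (lowest without control replicate 1, highest without control replicate 2).

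Comparisons with a single flank, for intervals and classes, and other weights or windows for classes were added after seeing the data. In the EDC interval the class of 1 to 5 was -1.84 points from the lower flank, that of 16 to 30 was 2.48 from the upper, and that of over 30 was 15.7 from the upper flank and 6.39 with equal weights. In the type II keratin interval the class of 16 to 30 was 2.82 from the lower and -1.68 from the upper flank. In the type I keratin interval the class of 1 to 5 was 0.061 from the lower flank, -4.12 from the upper, 5.19 with equal weights and 3.05 by reads of windows read in all 6 libraries, and that of 6 to 15 was 0.53 with equal weights and -0.91 from the upper flank. The cause of these changes was not tested.

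The share of low members under 10%, under 30% and among members of 20 reads was 6.05%, 12.6% and 11.5% in the EDC interval, 4.82%, 11.5% and 9.41% in the type II and 5.13%, 9.77% and 9.18% in the type I keratin interval. Called windows with all CpGs summed numbered from 0 to 2 of 297 to 329 tested when each library was left out, while 0.438% to 0.509% of the windows of the genome were called. Without control replicate 1 the call was chr19:42748501-42749000, without control replicate 2 chr5:27999501-28000000, without butyrate replicate 1 chr3:18666001-18666500 and chr5:27479001-27479500, without butyrate replicate 2 chr3:19114501-19115000 and chr19:42748501-42749000, and without butyrate replicate 3 chr3:18983501-18984000. With lane in the model, treatment was estimated from butyrate replicate 2 against the 3 controls, as lane 5 held butyrate libraries only. Calls of that fit rest on 1 butyrate library and are not given. At chr3:18666001-18666500 butyrate replicate 2 had 72.7%, and the controls had 43.1%, 19.1% and 28.6%. Butyrate replicates 1 and 3 had 28.6% and 54.1% there, so the groups overlapped.

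Whether the replicate number pairs the samples could not be settled, since small correlations at this depth do not exclude it. Deviations of control and butyrate libraries of the same number correlated by 0.0006, 0.0082 and 0.0066. Those of other numbers correlated by -0.011 to 0.0043. Control replicates 2 and 3 correlated best with their own number, but control replicate 1 with butyrate replicate 3. With a replicate block 1 of 262 windows was called, chr3:18665001-18665500, against 0.591% of the genome, and 0 bins.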
